A study of Mus musculus with 9 samples.

Results

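The guanylate-binding proteins (GBPs) and the immunity-related GTPases (IRGs) were followed through RNA-seq of macrophages sorted from mouse liver. The 10 genes were taken from the raw count table by their symbols, without a filter on their values, and make up 10 of its 23413 genes. They were chosen with earlier results of these data known. The GBPs were Gbp2, Gbp3, Gbp4, Gbp5 and Gbp7. The IRGs were Irgm1, Irgm2, Igtp (also called Irgm3), Iigp1 (Irga6) and Ifi47 (Irgd). The 10 genes were all present in the table and were all kept by the filter on low counts, which left 11393 genes to test.

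GBPs and IRGs are large GTPases that macrophages make when interferon gamma reaches them. The cytokine acts through its receptor and the JAK kinases on promoters with gamma-activated sites, and through IRF1, which binds interferon-stimulated response elements. GBPs and effector IRGs such as Iigp1 and Ifi47 coat the vacuoles of intracellular parasites and bacteria, and GBPs also expose bacterial lipopolysaccharide to the caspases of pyroptosis. Irgm1, Irgm2 and Igtp form the regulatory class of IRGs, which sit on the cell's own membranes and hold the effectors inactive there.

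Kupffer cells (KCs), the resident macrophages of the liver, were sorted as F4/80+CD11b+ cells, and the study's methods add a low Gr-1 signal. There were 9 libraries, 2 from mice on normal chow (NC), 3 from mice on a high fat diet (HFD) given vehicle and 4 from HFD-fed mice given diphenyleneiodonium (DPI), a flavoprotein inhibitor that the series' title describes as an activator of the receptor GPR3. All mice were male C57BL/6 with no engineered allele, 5 weeks old when an 8-week diet began, and the PEG3000 vehicle or DPI (2 mg/kg) was injected into the peritoneum every 5 days from week 3, while the labels give NC mice no treatment. A protocol field in the labels instead describes purified cells held in DMSO or 500 nM DPI for 24 h, and the dosing of live animals given in the design text and the paper was followed here.

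Libraries held 3534325 to 15585775 counts (NC 4666522 and 4801564, vehicle 4565492 to 5518176, DPI 3534325 to 15585775). A count of 3, the smallest taken to differ from none, equals 0.192 to 0.849 CPM (counts relative to the library total, here the total scaled by TMM). Values below are CPM, and libraries are named by group and mouse number. The cells carried general macrophage transcripts in every library (summed CPM of that marker list 15230.5 to 44114.6), but the defining Kupffer cell genes were low: Clec4f, the KC lectin, had 0 counts in NC 1, vehicle 2 and vehicle 3, 4 to 6 in DPI 2, 3 and 4, and 244, 42 and 219 in NC 2, vehicle 1 and DPI 1. Timd4 was at 0 in 5 of 9 libraries and Marco in 8 of 9. Cd5l, from the same marker list, was seen in more libraries. It had 0 and 113 counts in NC, 33, 42 and 0 in vehicle, and 601, 20, 24 and 9 in DPI. The label of resident KCs was thus not borne out by these markers in every library. In bulk RNA, fewer cells of a type and less RNA per cell cannot be told apart.

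The promoters of the genes show which of them carry the letters of the interferon elements. Windows from 250 bases before to 50 bases after the start site (RefSeq, GRCm38.p6) were at hand for 8 of the 10 genes, in 9 windows. The gamma-activated site was searched as TTCNNNGAA and the core of the interferon-stimulated response element as GAAA, any 2 bases and GAAA, on both strands, where matches may overlap. Of all 32851 windows of the genome, 8.3% held the first and 3.44% the second, and counted by gene these were 9.55% and 3.99% of 27025 genes. Among the genes with a window, 4 held the first (Gbp5, Gbp7, Irgm2 and Igtp), 7 held the second, and Ifi47 held neither. Below are the window of Gbp5, the gene with the widest difference between NC and HFD, at chr3:142496684-142496983 (+), and the 110 bases before the start of Gbp7 at chr3:142530226-142530335 (+), Irgm1 at chr11:48871421-48871530 (-), Irgm2 at chr11:58214867-58214976 (+), Igtp at chr11:58199446-58199555 (+) and Ifi47 at chr11:49076477-49076586 (+), chosen so that windows with both motifs, with 1 and with none can be compared. Each reads 5′ to 3′ on the gene's strand, and capitals mark the matches.
Gbp5: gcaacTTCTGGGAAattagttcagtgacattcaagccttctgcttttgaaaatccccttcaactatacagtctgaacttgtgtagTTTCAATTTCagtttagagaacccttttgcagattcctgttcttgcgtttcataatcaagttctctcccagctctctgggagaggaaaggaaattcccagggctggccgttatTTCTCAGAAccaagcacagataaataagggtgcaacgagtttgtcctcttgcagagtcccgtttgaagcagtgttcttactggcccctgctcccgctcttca
Gbp7: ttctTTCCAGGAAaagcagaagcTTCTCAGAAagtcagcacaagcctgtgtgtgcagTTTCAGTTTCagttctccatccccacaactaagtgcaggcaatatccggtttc
Irgm1: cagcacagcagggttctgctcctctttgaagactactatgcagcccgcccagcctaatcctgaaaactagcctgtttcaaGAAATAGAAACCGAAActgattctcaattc
Irgm2: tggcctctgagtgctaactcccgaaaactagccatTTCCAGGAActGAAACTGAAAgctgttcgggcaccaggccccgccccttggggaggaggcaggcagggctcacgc
Igtp: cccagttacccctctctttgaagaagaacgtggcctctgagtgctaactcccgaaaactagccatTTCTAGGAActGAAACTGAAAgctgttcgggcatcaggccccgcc
Ifi47: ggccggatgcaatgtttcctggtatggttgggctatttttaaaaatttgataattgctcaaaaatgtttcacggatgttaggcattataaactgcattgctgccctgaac

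In Gbp5 the matches to the gamma-activated site began 245 and 52 bases before the start and the match to the response element 165 bases before it. Gbp7 had a pair of the first, beginning 106 and 87 bases before the start, and 1 of the second at 53. Irgm2 and Igtp share an arrangement, a gamma-activated site followed at once by a response element, 75 and 64 bases before the start in Irgm2 and 45 and 34 in Igtp. Over the 60 bases that end with the response element, 58 were identical in the pair. Irgm1 had overlapping response element matches beginning 30 and 24 bases before its start, as Gbp3 had at 45 and 39, and Gbp2 had 1 at 59. A match describes letters in the window and says nothing on whether a factor was bound there, and the absence of a match in Ifi47 says only that these letters were not in that window.

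In the genome (GRCm38, GENCODE M21) all 10 genes are protein coding, and most lie in clusters. Gbp5 (chr3:142493978-142522344), Gbp7 (chr3:142530342-142550149), Gbp3 (chr3:142560026-142573209) and Gbp2 (chr3:142620602-142638008) follow each other on the forward strand of chromosome 3 with gaps of 8.0, 9.9 and 47.4 kb. Gbp4 is on chromosome 5 (chr5:105115767-105139586, reverse strand). Irgm1 (chr11:48861968-48871683, reverse strand) and Ifi47 (chr11:49076587-49096974, forward strand) are 204.9 kb apart on chromosome 11, where Igtp (chr11:58199556-58207591) overlaps the start of the Irgm2 gene model (chr11:58199618-58222782) by 8.0 kb on the same strand. Iigp1 is on chromosome 18 (chr18:60376027-60392634, forward strand). Words of 50 bases shared with other genes made up 11.8% of the Igtp transcripts, all with Irgm2, and 12.7% of those of Gbp7, mostly with the neighbouring model Gm43802, so that counts of Igtp, Irgm2 and Gbp7 are uncertain where reads could be split between copies. The shared part was under 8% in the other 8 genes.

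Per length, the GTPases spanned 48.7-fold, from Gbp2 at 39.1 CPM per kilobase of exon (mean of 9 libraries) to Iigp1 at 0.804. Between them lay Ifi47 at 34.8, Igtp at 16.0, Irgm1 and Irgm2 at 11.1 each, Gbp3 at 7.74, Gbp7 at 4.86, Gbp4 at 2.39 and Gbp5 at 1.57 CPM per kilobase. Gbp2 led in NC (27.4) and DPI (44.3) and Ifi47 in vehicle (45.5). The ranges of neighbours in this order mostly overlapped across libraries, in 6 of 9 neighbouring pairs in NC, 7 of 9 in vehicle and 9 of 9 in DPI. Such overlap ignores that both genes were measured in the same libraries, so it does not show that neighbours were alike within a library. In each DPI library Gbp3 lay above Gbp7, for example, but Gbp2 lay below Ifi47 in DPI 3. The steps without overlap were Gbp2 over Ifi47, Ifi47 over Igtp and Iigp1 over Gbp5 in NC, and Irgm1 over Gbp3 and Gbp4 over Iigp1 in vehicle. With the longest transcript as the length in place of all exons, Ifi47 led in all 3 groups (30.5, 63.4 and 46.4 CPM per kilobase). Gbp2 made up 16.8% to 39.8% of the summed CPM per kilobase in each library and Ifi47 18% to 32.3%.

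**Figure D1:**
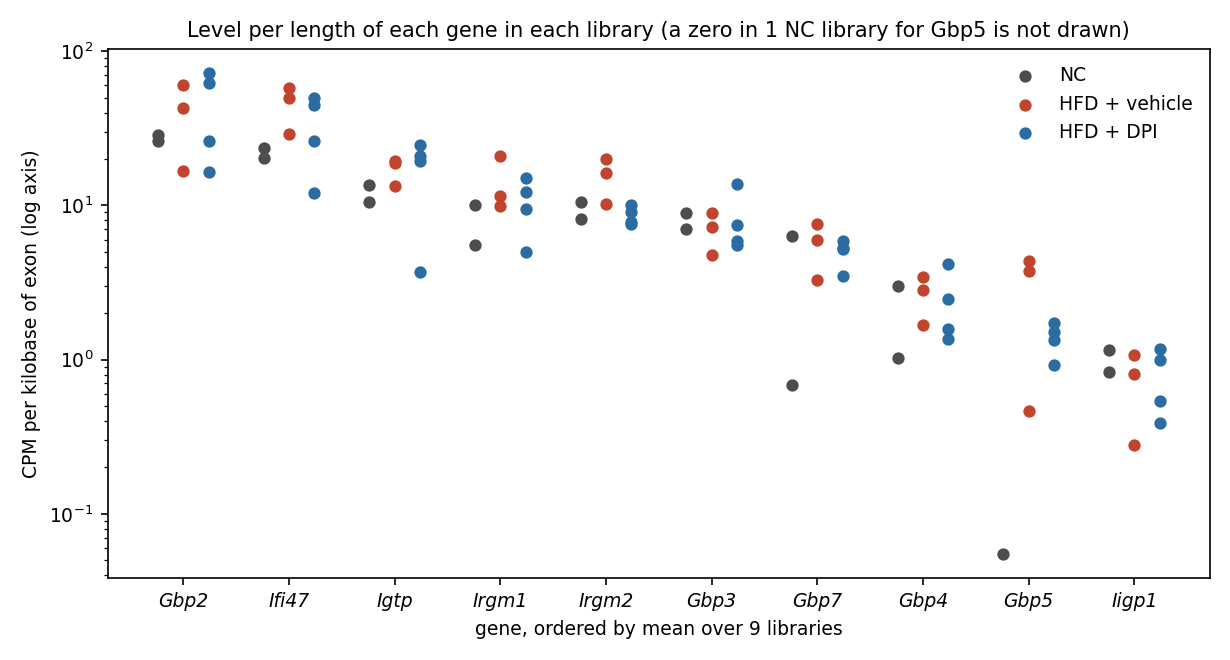
Level of each gene in each library as CPM per kilobase of exon, on a log axis, with the genes ordered by their mean over 9 libraries. Each point is a library (grey NC, red HFD with vehicle, blue HFD with DPI). The order runs from Gbp2 at a mean of 39.1 to Iigp1 at 0.804, and Gbp5 in NC lies far below its other libraries.

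The diet comparison asked what HFD did to liver macrophages, and set the 3 vehicle libraries against the 2 NC libraries. Over all tested genes the NC libraries were less alike (Spearman's rho of log2 CPM 0.74) than any pair within vehicle or DPI (0.838 to 0.887), and both comparisons with NC rest on them. Since vehicle was injected in the HFD-fed mice alone, diet and injection cannot be told apart here. Gbp5, a GBP that promotes inflammasome assembly, stood apart: it was near absent in NC and measured in each HFD library. Ifi47 was higher in every vehicle library than in both NC libraries. The other 8 genes overlapped between the groups, 6 with a higher and 2 with a lower fitted level in vehicle. By the study's rule, which asks for p below 0.05 before adjustment and a log2 change of 1 or more either way, 1 of the 10 genes (Gbp5) was higher and 0 were lower, against 7.03% and 4.63% of all genes tested. None of the 10 passed a Benjamini-Hochberg adjusted p of 0.05 in the quasi-likelihood test of edgeR, which 7 of the 11393 genes did (0.0614%), while 1 of the 10 had an unadjusted p under 0.05 and 13% of all genes did. The groups were separate with vehicle higher for 2 of 10 genes and lower for 0, against 15% and 12.5% of all genes. Fitted changes were above 0 for 8 of 10 genes and for 51.5% of all genes, and the median log2 fold change was 0.61 for the 10 genes, 0.55 without Gbp5, and 0.03 for all genes.

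Gbp5 counted 2 and 0 in NC, 130, 17 and 100 in vehicle and 163, 34, 48 and 60 in DPI. In CPM this was 0.364 and 0 in NC, 28.9, 3.08 and 24.8 in vehicle, and 9.99, 11.5, 8.91 and 6.12 in DPI. The NC libraries lay below all 7 HFD libraries, and vehicle 2 was the lowest of those. Group means were 0.182 ± 0.258 (SD, n = 2), 18.9 ± 13.9 (n = 3) and 9.14 ± 2.29 CPM (n = 4). Pooled over libraries, 247 counts in vehicle against 2 in NC gave a ratio of 95.3 with a 95% exact interval of 26.1 to 791.3, which covers counting error only. The fitted log2 fold change of vehicle over NC was 6.54 (SE 1.30), with a Benjamini-Hochberg adjusted p = 0.081 in edgeR. Gbp5 passed the filter on low counts through the HFD libraries alone, and asking for 10 counts in every library left it untested. In the other 17 alternative fits, where it met the study's rule, the change ran from 5.64 without NC 2 to 9.98 without NC 1, where the remaining NC library held 2 and 0 counts, and with all libraries kept it ran from 6.22 to 6.65. The adjusted p over these fits ran from 0.00021 to 0.27.

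Ifi47, an effector IRG and the member most like the others in its pattern over the 9 libraries, had 50.3 and 57.9 CPM in NC, 123, 71.8 and 142 in vehicle, and 123, 111, 64.8 and 29.7 in DPI. Vehicle lay above NC without overlap, and DPI spread from below NC to the height of vehicle. The means were 54.1 ± 5.39 (SD, n = 2), 112 ± 36.4 (n = 3) and 82.2 ± 43.2 CPM (n = 4). Vehicle over NC was a log2 fold change of 1.06 (SE 0.52), with a Benjamini-Hochberg adjusted p = 0.41 in edgeR, and missed the study's rule on p. It met the study's rule in 6 of 18 alternative fits, among them that without vehicle 2 (1.30) and that without DPI 4 (1.05).

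The regulatory IRGs leaned the same way with overlap. Irgm1, which also serves autophagy, had 58.1 and 32.1 CPM in NC, 67.0, 57.9 and 122 in vehicle, and 87.8, 55.4, 70.9 and 28.8 in DPI. Vehicle 2 fell just below NC 1, and the fitted change was 0.87 (SE 0.50, adjusted p = 0.48 in edgeR). Without NC 1 it became 1.36 and met the study's rule. Irgm2 had 39.0 and 30.3 CPM in NC and 60.2, 37.5 and 73.6 in vehicle, where again only vehicle 2 reached into the NC range, and its change was 0.72 (SE 0.39, adjusted p = 0.45 in edgeR). Igtp had 21.3 and 27.3 CPM in NC, 39.5, 27.0 and 37.9 in vehicle, and 39.4, 49.6, 42.1 and 7.45 in DPI. Vehicle 2 lay within the NC range once more, DPI 4 stood far below every other library, and the change of vehicle over NC was 0.52 (SE 0.61, adjusted p = 0.78 in edgeR).

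Iigp1, an effector IRG, was the lowest gene per length in vehicle and DPI, while Gbp5 was lower in NC, and it did not separate. It had 6.74 and 4.86 CPM in NC, 6.22, 1.63 and 4.71 in vehicle, and 6.80, 5.77, 3.15 and 2.25 in DPI. The 3 groups overlapped, with 9 to 111 counts behind each value, and the fitted change of vehicle over NC was -0.47 (SE 0.96).

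Among the other GBPs, Gbp2 had 71.8 and 66.1 CPM in NC, 108, 42.3 and 152 in vehicle, and 157, 181, 41.4 and 66.3 in DPI. NC was narrow and each HFD group held libraries on either side of it, so the fitted change of 0.55 (SE 0.60) was within the spread. Gbp3 had 23.1 and 28.9 CPM in NC, 29.1, 15.6 and 23.8 in vehicle, and 45.2, 24.5, 18.2 and 19.1 in DPI. Only DPI 1 stood out, and the change of vehicle over NC was -0.19 (SE 0.51). Gbp4 had 22.4 and 7.66 CPM in NC, 21.1, 12.5 and 25.8 in vehicle, and 18.5, 31.2, 11.9 and 10.2 in DPI, with overlap throughout and a change of 0.39 (SE 0.65).

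Gbp7, a GBP linked to the assembly of the phagocyte oxidase, showed the widest gap between the NC libraries. It had 3.83 CPM (21 counts) in NC 1 and 35.7 (191 counts) in NC 2, against 42.6, 18.5 and 33.7 in vehicle and 32.8, 29.2, 29.5 and 19.7 in DPI. NC 2 lay inside the HFD range and NC 1 below all 7 HFD libraries. The change of vehicle over NC was 0.68 (SE 0.70, adjusted p = 0.74 in edgeR), and it turned on which NC library was kept: -0.17 without NC 1 and 3.06 without NC 2, where it met the study's rule.

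**Figure D2:**
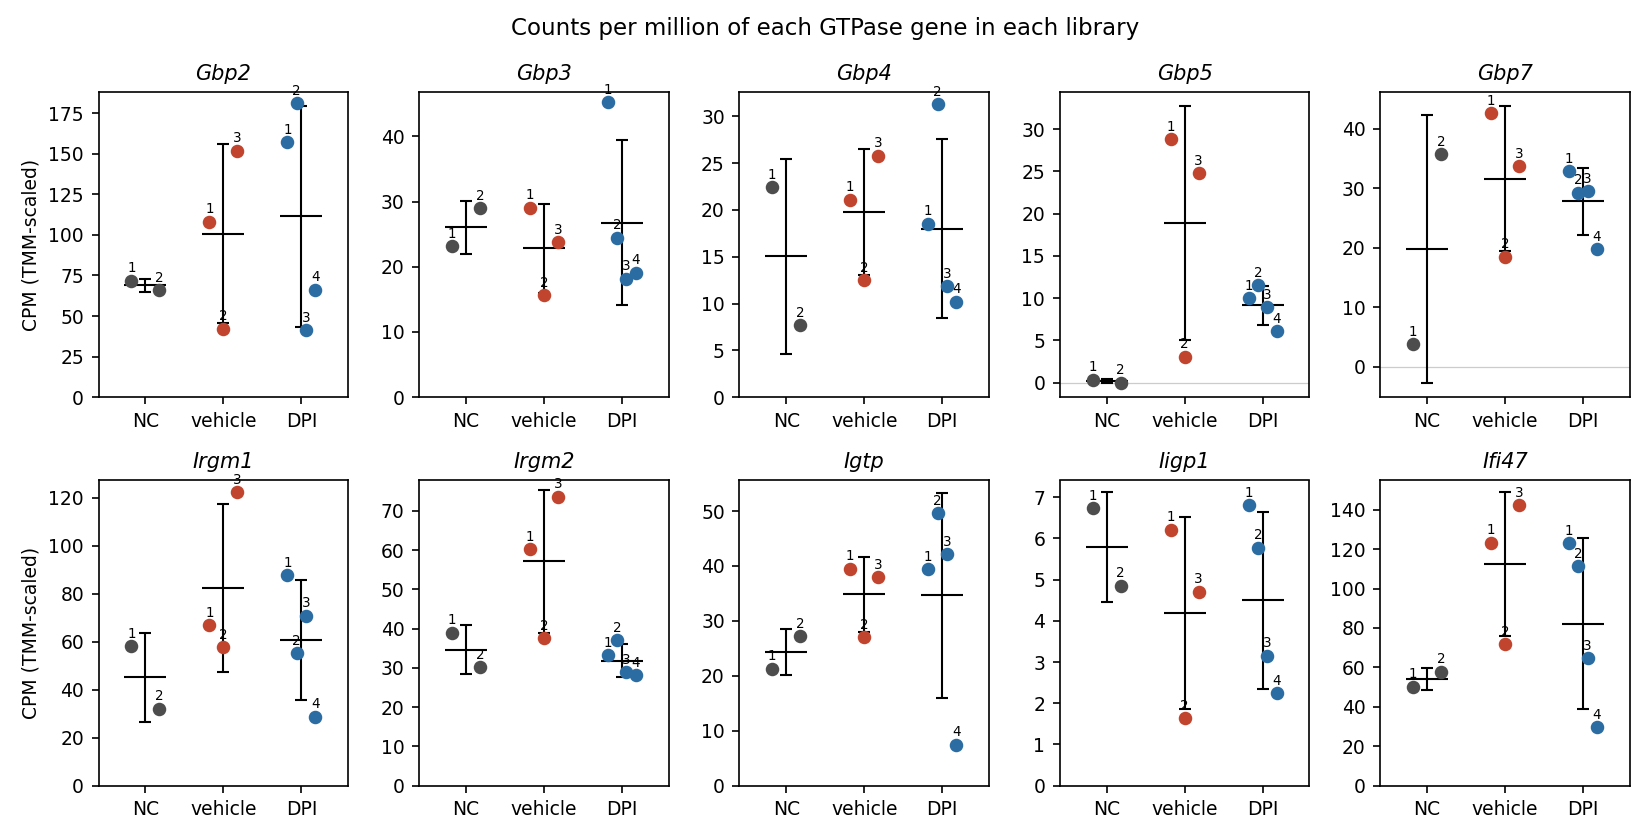
CPM of each gene by group, with 1 point per library numbered by mouse, the group mean (bar) and SD (whisker), on linear axes. NC lies below every HFD library for Gbp5 and below every vehicle library for Ifi47, vehicle lies above every DPI library for Irgm2, and vehicle 2 is the lowest vehicle library for all 10 genes.

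Within the HFD groups most of the genes were high or low in the same libraries, with exceptions. Vehicle 1 and vehicle 3 were high and vehicle 2 low: the mean log2 CPM over the 10 genes was 5.33 and 5.42 in the former and 4.21 in vehicle 2, next to 4.08 and 4.03 in NC. In DPI it was 5.21, 5.16, 4.55 and 3.96. DPI 4 was thus lower than either NC library on this mean. The share of counts taken by the rRNA gene Rn45s moved with the split in vehicle, at 36.9% and 44.5% in vehicle 1 and 3 and 27.0% in vehicle 2. In NC it was 34.6% and 31.1%. In DPI it ran from 27.7% in DPI 1, the DPI library with the highest mean of the 10 genes, to 42.6% in DPI 2. The part of Rn45s in the levels was not tested beyond the scaling without it. The summed CPM was 297 and 291 in NC, 526, 288 and 641 in vehicle, and 554, 537, 320 and 218 in DPI. DPI 4 held the lowest value of 4 genes (Irgm1, Irgm2, Igtp and Ifi47), all of them IRGs, and its summed IRG level of 96.3 CPM compared with 210 to 290 in the other DPI libraries and 152 to 175 in NC. Its summed GBP level of 121 CPM did not stand as low, next to 110 in DPI 3 and 121 and 138 in NC. In DPI 3, Gbp2 was at its lowest (41.4 CPM) while Igtp was at 42.1 CPM, above the DPI mean. Gbp7 followed the others least: its deviations from the group means had an r of 0.19 with those of the mean of the other 9 genes.

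**Figure D3:**
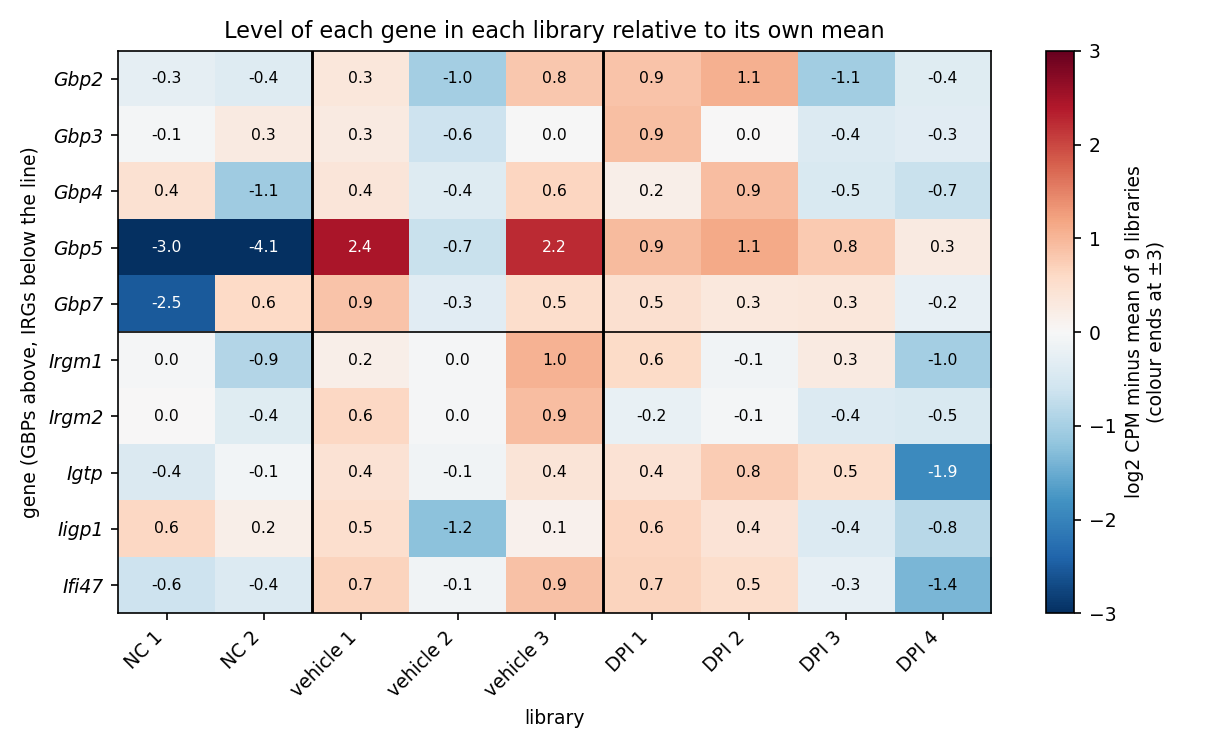
Level of each gene in each library as log2 CPM minus that gene's mean over the 9 libraries, with GBPs above and IRGs below the thin line and thick lines between NC, vehicle and DPI. Vehicle 1 and vehicle 3 are above 0 for nearly all genes and vehicle 2 is at or below 0 for all, and DPI 4 is below 0 for all but Gbp5, with its lowest value of -1.92 for Igtp.

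Over the 9 libraries, where the values of a library share its depth and its group, the median Pearson correlation of log2 CPM was 0.39 between GBPs (10 pairs), 0.58 between IRGs (10 pairs) and 0.50 between a GBP and an IRG (25 pairs). Spearman's rho was 0.54, 0.37 and 0.43, so that the order of the kinds of pair changed with the measure. Ifi47 followed the mean of the other 9 genes most closely (r = 0.91, rho = 0.93), and Gbp7 (r = 0.42) and Iigp1 (r = 0.43) least. In deviations from the group means, Iigp1 followed it most closely instead (r = 0.95, against 0.92 for Ifi47). Among pairs, Igtp and Ifi47 had an r of 0.85 and Gbp4 and Gbp7 one of -0.11. These values are descriptions of 9 libraries and were not tested.

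The tested genes whose log2 CPM was most like the mean of the 10 over the 9 libraries were Mb21d1, the DNA sensor cGAS (r = 0.98, rho = 0.97), Mtl5 (r = 0.93), Plac8, a monocyte gene (r = 0.93), Clcn7, a lysosomal chloride transporter (r = 0.92) and Psmb7, a proteasome subunit (r = 0.92). Values above 0.9 were reached by 15 of the 11383 other tested genes (0.13%), and without the 2 libraries farthest from the median (vehicle 1 and 3) these 5 had r from 0.87 to 0.97. Mb21d1 had 6.37 and 4.86 CPM in NC, 13.5, 5.99 and 17.1 in vehicle, and 13.0, 11.2, 6.87 and 5.20 in DPI. As in the GTPases, vehicle 2 and DPI 4 were the low libraries of their groups. Mtl5 rested on at most 28 counts.

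Markers of other cells also varied between libraries. The summed CPM of 3 monocyte markers (Ly6c2, Ccr2 and Plac8), none of them at 0 in a library, was 2653 and 2487 in NC, 3561, 2913 and 3507 in vehicle, and 4379, 3230, 3276 and 2191 in DPI, which follows the mean of the GTPases (r = 0.86 over 9 libraries, where Plac8 is also among the genes most like them). Ccr2 alone went the other way between diets, with 514 and 359 CPM in NC and 189, 223 and 147 in vehicle. T cell markers (6 genes) summed to 110 to 148 CPM in NC, 172 to 227 in vehicle and 128 to 435 in DPI, and natural killer cell markers (8 genes) to 46.4 to 194, 176 to 248 and 115 to 241. B cell markers (5 genes) summed to 14.9 to 69.1 CPM in NC and 93.4 to 179 in vehicle, without overlap, and to 15.6 to 405 in DPI. The sum of 6 endothelial markers went the other way between NC and vehicle, with 208 to 286 CPM in NC and 15.4 to 24.3 in vehicle but 10.8 to 211 in DPI, although Pecam1 among them had 5 and 6 counts in NC and 39, 50 and 7 in vehicle. The sum of 6 hepatocyte markers was 123 to 225 CPM in NC, 14.0 to 56.2 in vehicle and 28.3 to 76.1 in DPI. Eosinophil markers (2 genes) summed to 0 to 0.2 CPM in NC, 0 to 1.8 in vehicle and 88.7, 96.1, 0.4 and 58.1 in DPI, and neutrophil markers (5 genes) to 972 to 3006, 2330 to 3585 and 631 to 5021. Dendritic cell markers (6 genes) summed to 55.2 to 61.3, 33.7 to 78.6 and 64.2 to 135 CPM, and platelet markers (4 genes) to 4.6 to 16.2, 1.2 to 13.1 and 8.5 to 16.4. For the lists of this paragraph other than monocytes, r with the mean of the GTPases ran from -0.35 (neutrophil) to 0.53 (T cell). The part of these markers in the levels of the GTPases was not tested.

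The treatment comparison set the 4 DPI libraries against the 3 vehicle libraries, all from HFD-fed mice, to ask what DPI did under HFD. It shares the vehicle libraries with the diet comparison, so a high vehicle library moves both, in opposite directions. Irgm2 was lower in every DPI library than in every vehicle library. The other 9 genes overlapped between the groups, and Gbp2, Gbp3, Gbp4, Gbp7, Igtp and Iigp1 had fitted changes of at most 0.23 in size. By the study's rule 0 of the 10 genes were higher and 0 lower, against 1.5% and 1.34% of all genes tested. No gene of the table had an adjusted p under 0.05 in the quasi-likelihood test of edgeR (0 of 11393, 0%; 4.13% had an unadjusted p under 0.05, DESeq2 called 2 and edgeR's likelihood ratio test 1), and 1 of the 10 had an unadjusted p under 0.05. The groups were separate with DPI higher for 0 of 10 genes and lower for 1, against 3.38% and 2.48% of all genes. Fitted changes were above 0 for 3 of 10 genes and for 53.1% of all genes. The median log2 fold change was -0.17 for the 10 genes and 0.04 for all genes.

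Irgm2 had 33.2, 37.0, 28.9 and 28.2 CPM with DPI, against 60.2, 37.5 and 73.6 with vehicle and 39.0 and 30.3 in NC. DPI 2 and vehicle 2, at 37.0 and 37.5 CPM, nearly met, and the DPI range lay across that of NC. The means were 31.8 ± 4.11 (SD, n = 4) and 57.1 ± 18.2 CPM (n = 3). DPI minus vehicle was a log2 fold change of -0.84 (SE 0.32), short of the size the study's rule asks for, with a Benjamini-Hochberg adjusted p = 0.999 in edgeR. It was the 1 gene of the 10 with an unadjusted p under 0.05, which it lost without vehicle 1 (-0.81), without vehicle 3 (-0.63) and with the replicate block (-0.74). Without vehicle 2 it was -1.07 and met the study's rule. Igtp, whose transcripts share sequence with those of Irgm2, had a change of -0.01 (SE 0.51). How reads were split between these genes was not tested.

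Gbp5 had a mean of 9.14 CPM with DPI and 18.9 with vehicle, but vehicle 2 at 3.08 CPM lay below all 4 DPI libraries and vehicle 1 and 3 above them. The log2 fold change was -1.05 (SE 0.72, adjusted p = 0.999 in edgeR). It rested on which vehicle libraries were kept: without vehicle 2 it was -1.56 and met the study's rule, without vehicle 1 it was -0.60, and with the replicate block it was -0.42, and neither of the latter met the rule. Ifi47 changed by -0.45 (SE 0.42) and Irgm1 by -0.44 (SE 0.40), both within the spread. Leaving out 1 library moved Ifi47 from -0.72 (without DPI 1) to -0.17 (without DPI 4) and Irgm1 from -0.68 (without DPI 1) to -0.05 (without vehicle 3). IRGs had a median log2 fold change of -0.44, with 4 of 5 below 0, and GBPs one of -0.15, with 3 of 5 below 0.

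**Figure D4:**
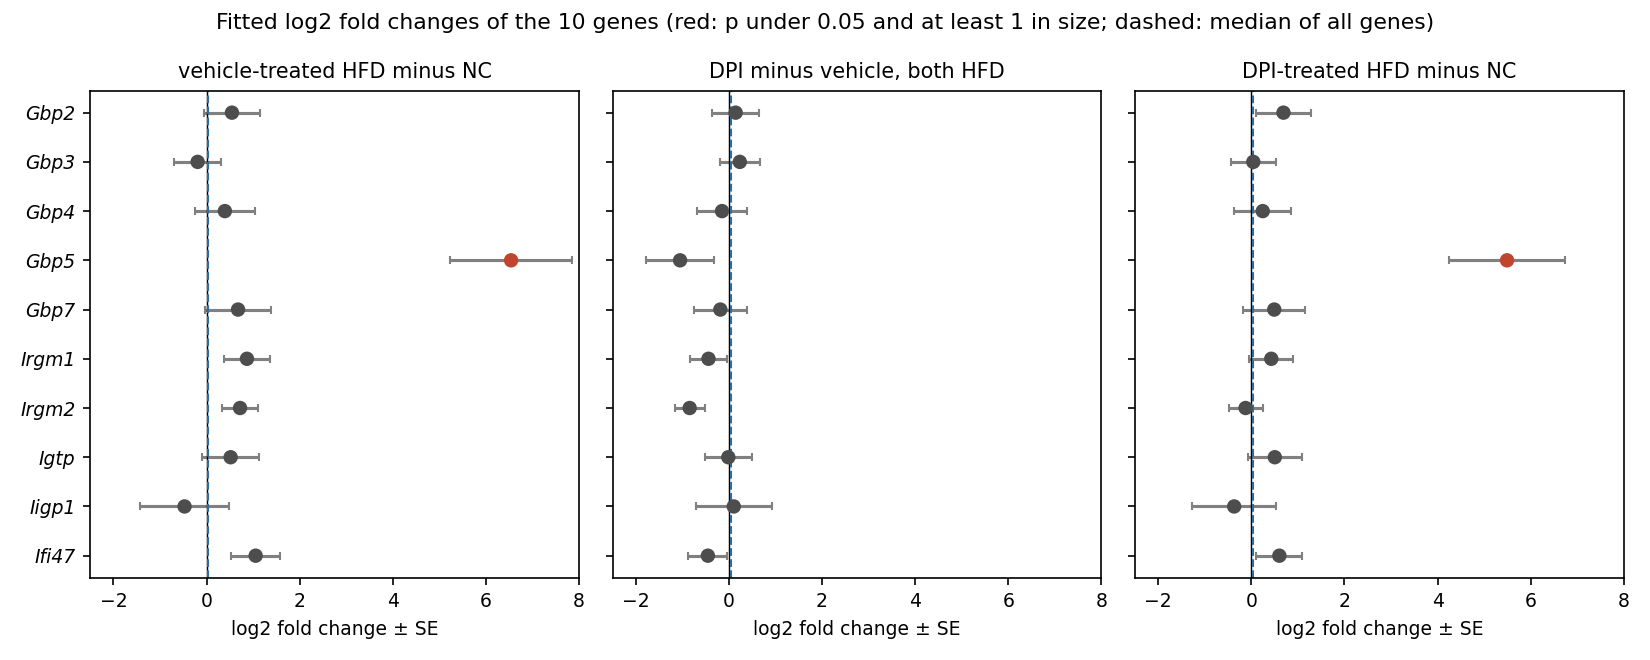
Fitted log2 fold change of each gene with its standard error in vehicle minus NC, DPI minus vehicle and DPI minus NC, with red for genes that met the study's rule and a dashed line at the median of all genes. Gbp5 is the red point in both comparisons with NC (6.54 and 5.49), and in DPI minus vehicle the lowest points are Gbp5 at -1.05 and Irgm2 at -0.84, neither of them red.

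The third comparison, DPI under HFD against NC, shares the NC libraries with the first and the DPI libraries with the second, so its values are no separate evidence. Gbp5 was again the gene that met the study's rule: 305 counts in DPI against 2 in NC gave a ratio of 48.0 (95% exact interval 13.2 to 398.2), and the fitted log2 fold change was 5.49 (SE 1.25), with a Benjamini-Hochberg adjusted p = 0.14 in edgeR (0.0023 to 0.35 over 17 alternative fits). It was 8.94 without NC 1 and 4.60 without NC 2. As in the diet comparison, the interval pools libraries and covers counting error only, and Gbp5 entered the test through its HFD libraries alone. Of the 10 genes 1 was higher and 0 lower, against 6.24% and 3.05% of all genes, and 0 passed the adjustment, as 1 gene of the table did (0.00878%). An unadjusted p under 0.05 was reached by 1 of 10 and by 10.7% of all genes. The groups were separate for 1 gene higher and 0 lower, against 11.7% and 8.5%. Fitted changes were above 0 for 8 of 10 genes and for 52.1% of all genes, with a median of 0.46 for the 10 (0.43 without Gbp5) and 0.04 for all. The largest of the others was Gbp2 at 0.69 (SE 0.58).

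Relatives of the 10 genes were followed as a list of 20, of which 18 were in the table and 15 were tested. As background for this and the lists that follow, the study's rule called 7.03% of all genes higher and 4.63% lower in vehicle over NC, 1.5% and 1.34% in DPI over vehicle, and 6.24% and 3.05% in DPI over NC. In vehicle over NC 3 relatives were higher and 0 lower. The change was above 0 for 12 of 15, against 51.5% of all genes, and the median log2 fold change was 0.79 (0.78 without Gbp10, which had no count in NC), against 0.03 for all genes. Gm12250 (Irgb10), an IRG that acts on bacteria downstream of GBPs, had 4.01 and 5.04 CPM in NC, 41.3, 18.7 and 30.5 in vehicle, and 17.7, 11.2, 21.9 and 1.94 in DPI. All vehicle libraries lay above NC, and the change was 2.73 (SE 0.86, adjusted p = 0.25 in edgeR). Tgtp1, a GTPase of the IRG family, had 0 and 2.80 CPM in NC, 22.6, 16.9 and 30.2 in vehicle, and 32.0, 25.5, 17.6 and 0.714 in DPI. NC was again below vehicle, and DPI 4 was low as it was for Igtp. The fitted change was 4.04 (SE 1.39, adjusted p = 0.28 in edgeR), but with 0 and 15 counts in NC the gene passed the filter on low counts through its HFD libraries, and the size of the fold rests on those few NC counts. Tgtp2, named after its value was seen, had 20.4 and 49.3 CPM in NC and 67.7, 43.7 and 108 in vehicle. These overlapped, with a fitted change of 1.065 (SE 0.72) that was not called. Whether reads were shared between Tgtp1 and Tgtp2 was not tested. Gbp10 was called on 0 and 0 counts in NC against 7, 22 and 0 in vehicle, too few for a fold.

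With DPI against vehicle 2 of the 15 relatives had a fitted change above 0 (53.1% of all genes), with a median of -0.55, and 1 was lower by the study's rule. That gene was 9930111J21Rik2, an IRG-like gene named after its value was seen, at -1.48 (SE 0.69, adjusted p = 0.999 in edgeR). Gm12250 changed by -1.19 (SE 0.64) without meeting the rule. In DPI over NC 2 were higher (Tgtp1 at 3.74 and Gbp10), and the median was 0.15, or 0.06 without Gbp10. Gvin1, a very large interferon-inducible GTPase, had 26 counts (4.82 CPM) in DPI 3 against 162 to 323 CPM in the other DPI libraries, and is named here because of that value.

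Upstream, the ligand, receptor and JAK genes gave little. Of 12 genes 10 were tested, with 0 called in vehicle over NC (median 0.13, or 0.08 without Il12a) and 0 in DPI over vehicle (median 0.12). In DPI over NC 1 was called, the cytokine subunit Il12a, on 0 and 0 counts in NC and 11, 1, 23 and 30 in DPI. Ifng itself, which T and natural killer cells make, had 0 and 16 counts in NC, 16, 70 and 66 in vehicle, and 9, 38, 20 and 30 in DPI, named here as the ligand of the pathway. In CPM, vehicle lay above NC, and the fitted change of 2.85 had an SE of 1.52 (adjusted p = 0.44 in edgeR). Its correlation with the mean of the 10 genes over 9 libraries was 0.31.

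Transcription factors and inhibitors of the pathway, 14 of 14 tested, had 2 genes higher and 0 lower in vehicle over NC, with a median of 0.30. Nlrc5, the activator of MHC class I genes, had 22 and 14.4 CPM in NC, 98.1, 40.8 and 67.9 in vehicle, and 21, 43.5, 29.3 and 22.4 in DPI. Vehicle lay above NC and overlapped DPI by a single pair of libraries. Its changes were 1.92 for vehicle over NC (SE 0.50, adjusted p = 0.17 in edgeR) and -1.26 for DPI over vehicle (SE 0.39, adjusted p = 0.999), the 1 gene of the list that was lower with DPI. Socs1, the feedback inhibitor of JAK signalling, had 7.29 and 7.28 CPM in NC, 27.7, 22.3 and 40.1 in vehicle, and 13.8, 20.7, 18.2 and 13.0 in DPI. The vehicle libraries were above all others, with changes of 2.04 for vehicle over NC (SE 0.53, adjusted p = 0.17 in edgeR), -0.88 for DPI over vehicle (SE 0.41, which missed the rule) and 1.16 for DPI over NC. No gene of these lists had an adjusted p under 0.05 in the quasi-likelihood test of edgeR.

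Other interferon gamma targets, 18 of 20 tested, had 5 genes higher and 0 lower in vehicle over NC, against 7.03% and 4.63% of all genes. The change was above 0 for 17 of 18 (51.5% of all genes), with a median of 0.90, and 12 of 18 were separate and higher (15% of all genes). B2m, the light chain of MHC class I, had 2012 and 2323 CPM in NC and 4232, 4812 and 4733 in vehicle, a change of 1.08 (SE 0.25, adjusted p = 0.13 in edgeR). H2-Aa, an MHC class II chain, had 1065 and 847 CPM in NC, 1852, 1984 and 1974 in vehicle, and 1775, 3416, 3054 and 2043 in DPI. Both HFD groups lay above NC, by 1.02 (SE 0.30) in vehicle and 1.43 (SE 0.30) in DPI. The other genes higher in vehicle were the chemokine Cxcl9, the checkpoint ligand Cd274 and the co-stimulator Cd40, at 1.23 to 2.05. Cxcl9 overlapped between vehicle (105 CPM, SD 75.0) and NC, while Cd274 and Cd40 were separate. With DPI over vehicle 2 of the 18 were lower (Cxcl9 at -1.33 and Cd274 at -1.10, both with overlap), and the median was -0.07. In DPI over NC 4 were higher, all of the MHC class II group (H2-Aa, H2-Ab1, H2-Eb1 and Cd74 at 1.21 to 1.43), with a median of 0.71. Cxcl9, Cd274, Cd40, H2-Ab1 and H2-Eb1 fall outside the naming rule and were chosen after their values were seen.

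Downstream, a mixed list held ATG8 conjugation genes and other genes linked to the loading of the GTPases onto vacuoles. Of it 15 of 16 were tested, with 2 higher (Sqstm1 and Trim21) and 1 lower (Atg16l1) in vehicle over NC. The median was 0.31, or 0.25 without Trim21. Sqstm1, the p62 adaptor, changed by 1.10 (SE 0.40, adjusted p = 0.30 in edgeR), from 124 and 181 CPM in NC to 281, 465 and 233 in vehicle. Atg16l1, a scaffold of ATG8 conjugation, had 28.0 and 7.10 CPM in NC and 8.21, 6.35 and 4.46 in vehicle, a change of -1.47 (SE 0.67, adjusted p = 0.38 in edgeR), although NC 2 lay inside the vehicle range. Trim21 was called on 3 and 0 counts in NC against 28, 2 and 57 in vehicle. With DPI over vehicle 0 of the 15 were called, with a median of 0.14. Among caspases and pyroptosis genes, 11 of 11 tested, 0 were called in vehicle over NC (median 0.07), and with DPI over vehicle 1 was lower, the inflammasome sensor Nlrp3 at -1.33 (SE 0.56, adjusted p = 0.999 in edgeR), with 18.6, 4.76, 28.8 and 36.4 CPM in DPI against 65.7, 30.7 and 72.1 in vehicle.

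**Figure D5:**
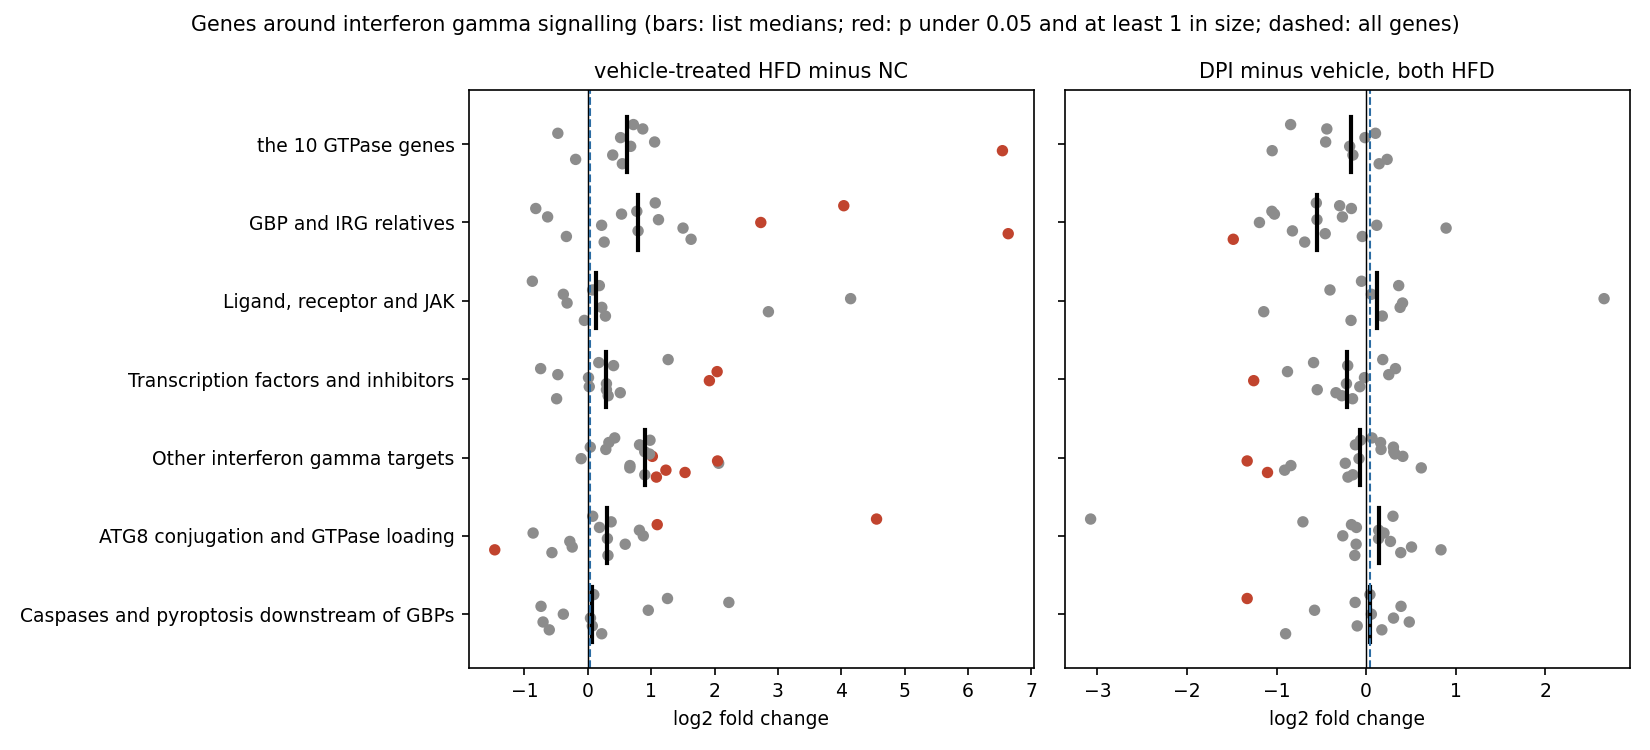
Fitted log2 fold changes of the 10 genes and of 6 lists of related genes in vehicle minus NC and in DPI minus vehicle, with 1 point per gene, red for genes that met the study's rule, a bar at each list's median and a dashed line at the median of all genes. In vehicle minus NC the medians run from 0.07 (caspases and pyroptosis) to 0.90 (other interferon gamma targets), and in DPI minus vehicle the lowest median is that of the relatives at -0.55.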

How the data were processed

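RNA was measured in 9 libraries, 2 NC, 3 vehicle and 4 DPI, grouped by their labels. The table the authors deposited holds raw counts, whole numbers for each gene with no normalization, and every column of it belongs to a mapped library. Per the labels, the build was mm10 and the tools included TopHat2 and edgeR, without versions, while the paper names bowtie2 and RSEM for these data. The gene annotation is not given in the sources used here. The kit was KAPA mRNA HyperPrep. The rRNA gene Rn45s took 27.0% to 44.5% of the counts.

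The test was edgeR 4.0.16 (R 4.3.3) on these counts (filterByExpr, TMM factors, glmQLFit and glmQLFTest over the 3 groups, without a replicate block), with Benjamini-Hochberg adjustment of p over all 11393 tested genes. All p-values are two-sided. Log2 CPM used a prior count of 2. Group differences are fitted log2 fold changes, and p measures the spread between mice as labelled. Depth was 3534325 to 15585775 counts per library. Reads carry no molecular identifiers and are no independent molecules after PCR, so intervals and floors hold counting error and nothing else.

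The genes and lists were chosen with earlier results of these data known. All 10 genes were named. Up to 3 genes per list were named, by rising p among genes that met the study's rule, and also the 5 genes most correlated with the mean of the 10. A gene named outside this rule is marked as chosen after its value was seen. Positions came from GENCODE M21, and promoters from RefSeq. Iigp1 sequence is not shown, and some genes of the lists are not reported by name here. The alternatives were library size alone or RLE scaling, scaling without Rn45s, other filters on low counts, DESeq2 1.42.0, edgeR's likelihood ratio test, fits of the 2 groups compared, the replicate number as a block, a prior count of 0.5, and fits that each lack 1 library. Tables and figures were made in Python 3.11.15 with pandas 2.3.3, scipy 1.17.1, matplotlib 3.10.9 and numpy 2.4.6.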

Additional observations from a re-analysis of the deposited data

How the results depend on the processing

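With 2 to 4 libraries a group, a count of genes called moves with a single library, and signs of changes near 0 turn easily. Of 178 values computed for the 10 genes in each comparison, 4 changed sign in vehicle over NC, 17 in DPI over vehicle and 8 in DPI over NC. Gbp5 met the study's rule in 17 of 18 alternative fits of either comparison with NC and was not tested in the other, and it entered the test through its HFD libraries alone. The cause of a change was not tested unless stated.

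In vehicle over NC, Gbp5 and Ifi47 met the study's rule, 2 genes of the 10, without a filter, in the fit of the 2 groups and with the replicate block. With at least 10 counts in every library Gbp5 and Iigp1 could not be tested, so that 0 of the rest were called in DPI over NC, and the counts over all genes were 726, 202 and 527 in the 3 comparisons against 1329, 324 and 1058. Without a filter DPI over vehicle gave 602 genes. An adjusted p under 0.05 was reached in vehicle over NC by 7 genes, and by 1 (library size alone or at least 10 counts), 52 (no filter), 312 (DESeq2), 280 (likelihood ratio test) or 0 (2 groups, or block). In DPI over vehicle the 0 became 2 (DESeq2) and 1 (likelihood ratio test). In DPI over NC the 1 became 22 (no filter), 219 (DESeq2), 186 (likelihood ratio test) and 0 (2 groups, or block).

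Scaling by library size alone moved the median of all genes to -0.26, 0.12 and -0.17 in the 3 comparisons, and turned Igtp in DPI over vehicle to 0.034 and, in DPI over NC, Gbp3 to -0.16 and Gbp4 to -0.038. Same-numbered libraries did not deviate together (r from -0.02 to 0.08), so the numbers were not taken as pairs. With the replicate block, Gbp4 became 0.082, Igtp 0.32, Gbp5 -0.42 and Irgm2 -0.74 in DPI over vehicle. The longest transcript moved Ifi47 in vehicle to 63.4 CPM per kilobase. Of the 5 genes most like the 10, 3 stayed with a prior count of 0.5 and 2 with deviations from group means.

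Leaving out each library in turn, vehicle over NC gave 1027 to 2634 genes by the study's rule and 1 to 568 after adjustment, DPI over vehicle 187 to 543 and 0, and DPI over NC 830 to 2626 and 1 to 572, the highest in both comparisons with NC being without NC 2. The 10 genes gave 1 to 2 calls, 0 to 2 and 1 to 2. A second call came without NC 1 (Irgm1), NC 2 (Gbp7), vehicle 2 (Ifi47) and DPI 4 (Ifi47) in vehicle over NC and without NC 2 (Gbp7 at 2.89) in DPI over NC, and the 2 calls in DPI over vehicle came without vehicle 2 (Gbp5 and Irgm2). The medians ran from 0.50 to 0.93, -0.43 to 0.00 and 0.28 to 0.65. Signs turned for Gbp3 (-0.36 to 0.023), Gbp4 (-0.16 to 1.37) and Gbp7 (-0.17 to 3.06) in vehicle over NC. In DPI over vehicle they turned for Gbp2 (-0.23 to 0.56), Gbp3 (-0.15 to 0.44), Gbp4 (-0.55 to 0.082), Gbp7 (-0.46 to 0.089), Igtp (-0.24 to 0.33) and Iigp1 (-0.28 to 0.51). In DPI over NC they turned for Gbp3 (-0.34 to 0.25), Gbp4 (-0.30 to 1.23), Gbp7 (-0.35 to 2.89) and Irgm2 (-0.26 to 0.081). Without a change of sign, DPI over vehicle ran from -1.56 to -0.60 for Gbp5, -1.07 to -0.63 for Irgm2, -0.72 to -0.17 for Ifi47 and -0.68 to -0.05 for Irgm1. Vehicle over NC ran from 0.17 to 0.92 for Gbp2, 0.52 to 1.36 for Irgm1 and -0.83 to -0.09 for Iigp1. Where this left an arm with 1 library, that library was taken to vary like the other groups.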
